A study of Acromyrmex echinatior with 18 samples.

Results

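RNA editing in the heads of gynes was compared with that in the heads of small workers of the leaf-cutting ant Acromyrmex echinatior. The comparison took all RNA libraries of these castes, 3 of gynes and 3 of small workers, which are 6 of the 9 RNA libraries and of the 18 RNA and DNA libraries of the study. Each caste gave 1 library in each of colonies Ae322, Ae356 and Ae363, written here as A, B and C. The colonies came from Panama and were kept in the laboratory on the same diet, and the age of the ants is not given. A gyne library held 50 pooled heads and a small worker library 200, so the spread between libraries is that between pools of different colonies and not between ants. The editing level of a site is the share of its RNA reads that carry the edited base, in percent. Of the 17229 sites in the authors' table, the 6914 covered by 10 or more RNA reads in each of the 6 libraries were compared.

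Gynes are the winged females that can found colonies as queens, whereas small workers are sterile females that tend the brood and the fungus garden. The most frequent editing in animals turns adenosine into inosine in double-stranded stretches of RNA. Enzymes called ADARs carry it out, and sequencing reads inosine as G. Insects have an ADAR gene that acts mainly in the nervous system, where editing recodes ion channels and synaptic proteins. Most edited adenosines of insects, however, lie in introns, UTRs and repeats and change no protein. A 3' UTR is the untranslated end of a messenger RNA, and a transposable element (TE) is a mobile repeat.

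The RNA reads over all sites numbered 546748 to 650644 per gyne library and 825726 to 1037408 per small worker library, and the median tested site had 36 to 42 reads in a gyne library and 57 to 73 in a small worker library. The authors had called between 8878 and 9634 sites as edited in each gyne library and between 12412 and 13823 in each small worker library. Changes of A to G made up 6227 of the tested sites and other changes 687. Marker genes of other cell types differed in RNA read depth as well. Of 6 muscle genes 2 (33.3%) were called as lower in small workers and 3 overlapped between castes. Of 12 neuron genes 2 (16.7%) were called as higher and 5 overlapped. Of all 1148 genes 7.75% were called as lower and 4.88% as higher, so these lists differ from all genes by few calls. The share of all genes that overlapped is not given here. The summed depth of the muscle genes was between 5927 and 7148 scaled reads per site in gynes and between 3340 and 3822 in small workers, and sls and Argk together made up 96.8% of it in gynes and 97.1% in small workers. That of the neuron genes was between 361 and 638 in gynes and between 676 and 767 in small workers. In pooled heads fewer cells of a type and less RNA per cell cannot be told apart, and what part these differences have in the editing levels was not tested.

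Editing was higher in small workers than in gynes in every colony. The mean level over the 6914 sites was 12.7% in gynes of colony A, 12.2% in B and 12.2% in C, against 16.7%, 16.6% and 16.8% in small workers. The groups did not overlap and lay 4.35 percentage points apart, with means of 12.3% ± 0.271 and 16.7% ± 0.127 (SD, n = 3 each). The exact two-sided permutation p was 0.1, the smallest that 3 against 3 libraries allow. Within colonies the difference was 4.0 points in A, 4.43 in B and 4.62 in C. With the colony as a replicate block, the exact sign-flip p was 0.25, the smallest that 3 colonies allow. A further set was the 3024 tested sites that the authors had called in all 3 large worker libraries. This added filter used neither gynes nor small workers, whereas the depth minimum of the tested sites used both. The gyne mean there was 20.6% and the small worker mean 26.8%, 6.26 points apart. The ratio of small workers to gynes was 1.30 at these sites, below the 1.35 of all tested sites. The 1126 tested sites with at least as many reads in gynes on average were picked once the data had been seen. Their difference was 5.15 points and their ratio 1.43.

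The rise was measured at A-to-G sites, whose mean level was 13.4% ± 0.275 in gynes, against 18.2% ± 0.148 in small workers (SD, n = 3 each). Over the 687 sites of other changes it was 3.05%, 2.72% and 2.53% in gynes of colonies A, B and C and 3.0%, 2.80% and 2.76% in small workers. These values overlapped, with a difference of 0.0818 points (exact permutation p = 0.7). The 360 G-to-A sites were at 3.6% in gynes and 3.52% in small workers, and the 144 C-to-T sites at 2.0% and 2.04%.

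All 6 kinds of genomic element showed a higher A-to-G level in small workers in every colony. At 1930 sites in 3' UTRs the level was 12.7% ± 0.288 in gynes, against 17.7% ± 0.0967 in small workers (SD, n = 3 each). Introns, with 780 sites, went from 14.4% ± 0.165 to 19.6% ± 0.0810, and 5' UTRs, with 68 sites, from 13.3% ± 0.375 to 18.9% ± 0.226. The 61 coding sites were at 14.7%, 14.3% and 11.9% in gynes of colonies A, B and C and at 17.4%, 18.6% and 15.8% in small workers. The coding difference of 3.66 points had the widest spread, although the groups did not overlap. At 976 sites in transposable elements outside genes the level went from 15.1% ± 0.25 to 20.3% ± 0.263, and at 2409 sites without annotation from 13% ± 0.318 to 17.4% ± 0.234. Each of these differences had an exact permutation p of 0.1, the smallest possible. In 3' UTRs the difference was 5.44 points at the 598 sites inside transposable elements and 4.84 at the 1332 outside them.

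**Figure D1:**
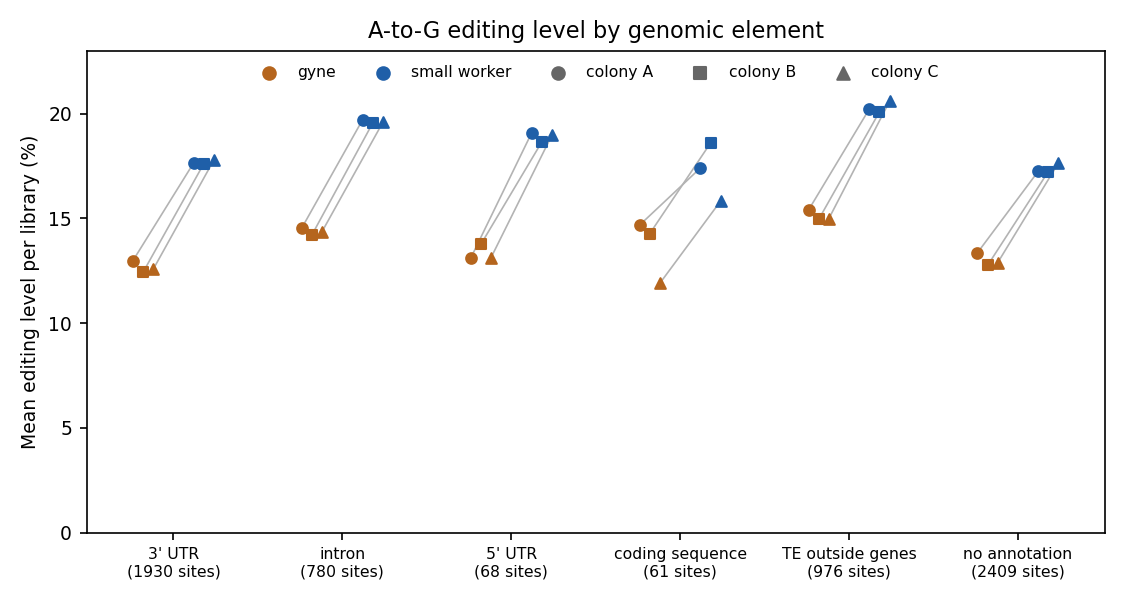
Mean A-to-G editing level of each library (y axis, percent, from 0) in 6 kinds of genomic element (x axis, with the number of tested sites); orange marks are gynes, blue marks small workers, the shape of the mark gives the colony and lines join the castes of 1 colony. Every line rises from gynes to small workers, and the coding sequence, with 61 sites, has the widest spread.

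Sites of every editing level took part in the rise. When A-to-G sites were sorted by their mean level in the 3 large worker libraries, which are not part of the comparison, sites under 2% there went from 2.61% in gynes to 4.81% in small workers. Sites between 10% and 20% in large workers went from 11.2% ± 0.515 to 16.2% ± 0.102, and those between 20% and 40% from 22.9% ± 0.375 to 31.1% ± 0.174 (SD, n = 3 each). The 215 sites above 60% in large workers went from 66.5% ± 0.467 to 76.3% ± 0.898. The ratio of small workers to gynes was 1.84 at the least edited sites and 1.15 at the most edited ones, and the difference was 2.20 and 9.89 points, with 10.4 points at sites between 40% and 60%. Over all tested sites the Mantel-Haenszel odds ratio, a common odds ratio weighted over sites, was 1.52.

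The colonies resembled each other in direction more than in the size of single sites. In colony A 63.8% of tested sites were higher in small workers, in B 66.1% and in C 64.3%. Small workers were higher in all 3 colonies at 32.2% of sites and lower in all 3 at 3.75%, and the shares were 32.3% and 3.58% of the 811 genes with a tested site and 63.4% and 1.91% of the 418 clusters of neighbouring sites described further on. Of the 266 genes that had 3 or more tested sites, 175 were higher in all 3 colonies and 10 were lower. The differences of 2 colonies correlated across the 6914 sites with Pearson r between 0.198 and 0.237 and across those 266 genes with r between 0.310 and 0.368. Sites and genes are not independent, and the colonies share the sites, their read depth and their base composition, so these r only describe the table.

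At the level of sites, 437 of 6914 (6.32%) had an adjusted p under 0.05 by the quasi-binomial model. Of these, 433 (6.26%) were higher in small workers and 4 (0.0579%) lower, and 1448 had an unadjusted p under 0.05. The model allows for spread between libraries beyond counting error. At nearly all sites, however, it used the dispersion typical of their depth and not their own. At 179 of the 437 called sites the site's own dispersion lay above the one used. The median difference of the called sites was 15.1 points, 436 of them were A-to-G and 228 lay in 101 genes. Levels did not overlap, with small workers higher, at 1472 sites (21.3%), and with gynes higher at 113 (1.63%). In 3' UTRs 167 of 2053 sites (8.13%) were called, in introns 53 of 845 (6.27%), in transposable elements outside genes 64 of 1003 (6.38%), in sites without annotation 145 of 2693 (5.38%) and in coding sequence 4 of 228 (1.75%). Since 436 of the 437 were A-to-G, the mix of base changes enters these shares, most of all in coding sequence, where 61 of 228 sites were A-to-G. Among A-to-G sites 436 of 6227 (7.0%) were called, with 4 of 61 (6.56%) in coding sequence, 53 of 780 (6.79%) in introns, 167 of 1930 (8.65%) in 3' UTRs, 64 of 976 (6.56%) in transposable elements and 144 of 2409 (5.98%) without annotation. Depth also differed between elements, with a median of 61.8 reads per library in 3' UTRs and 43.3 in introns, and its part in the shares was not tested. The count rested on the overall shift and on the libraries. Relative to the shift common to all sites 45 sites passed, 29 higher and 16 lower, of which 34 were among the 437. The mean over libraries was higher in small workers at 74.5% of sites. With the replicate block 0 passed (476 before adjustment), and limma after an arcsine-square-root transformation called 0 (1132 before adjustment). The block left few degrees of freedom for the spread of a site, and little was gained from other sites (prior degrees of freedom 0.513). That fit could therefore hardly call any site. Without gynes of colony A, B or C 264, 232 and 230 passed.

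The called sites in genes with the largest rises lay in genes of several functions. All levels are of A-to-G sites. Position 688856 of scaffold 99 lies in the 3' UTR of the gene sqd (Aech_00895), whose protein in Drosophila localises messenger RNA in the egg. It was at 29.6%, 27.8% and 44.3% in gynes of colonies A, B and C and at 86.3%, 92.3% and 60% in small workers. Every small worker value lay above every gyne value, by 45.6 points on average (quasi-binomial adjusted p = 1.52e-06, 27 to 80 reads per library). The spread of the site exceeded what the test assumed, with a dispersion of its own of 5.56 against 1.90.

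Position 2772508 of scaffold 50, in the 3' UTR of the phosphoinositide phosphatase gene Sac1 (Aech_04589), was at 8.33%, 0% and 21.4% in gynes and at 36.8%, 78.6% and 50.0% in small workers. It had only 10 to 19 reads per library (adjusted p = 0.0308), and the 0% is 0 of 13 reads, which allows a level of up to 23.1%. In an intron of CG18065 (Aech_06370), position 800843 of scaffold 309 was at 18.8%, 28.6% and 11.1% in gynes and at 78.9%, 59.3% and 46.7% in small workers (adjusted p = 0.0161). In the 3' UTR of aralar1 (Aech_16177), a mitochondrial carrier of aspartate and glutamate, position 167832 of scaffold 280 was at 13.6%, 27.3% and 13.6% in gynes and at 54.9%, 36.4% and 80.8% in small workers (adjusted p = 0.00142). Small workers were higher in all 3 colonies at each of these sites, with standard deviations of up to 22.3 points. An intronic site of the transporter-like gene CG14621 (Aech_16241), at position 7392 of scaffold 463, rose by 41.5 points (adjusted p = 0.0458, 10 to 16 reads). The called sites of CG15738 (Aech_02046), CG3225 (Aech_16648), CG11665 (Aech_14367), Aech_16122 and S6k (Aech_11007) rose by 34.2 to 42.5 points. As for sqd, the site's own dispersion exceeded the one used for Sac1 (2.28 against 1.84), aralar1 (3.02 against 1.87), CG15738, CG14621 and CG3225. For CG18065, CG11665, Aech_16122 and S6k it did not. None of the sites named so far passed with the replicate block (adjusted p = 0.526 each). The value was the same for each, so that fit, with the limit given above, does not tell these sites apart. Relative to the overall shift those of sqd (adjusted p = 0.00244), CG11665 (0.000613) and Aech_16122 (0.0373) passed and the other 7 did not.

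Of the 4 called sites that were lower in small workers, 1 lay in a gene. In an intron of Aech_12009, position 280857 of scaffold 15 was at 21.2%, 25% and 20% in gynes and at 0 of 51 reads in the small worker libraries together, which allows a level of up to 5.88% (adjusted p = 0.0305). The other 3 had no annotation. Position 394351 of scaffold 344 was at 44.4%, 20% and 30.8% in gynes and at 7.5%, 7.5% and 2.0% in small workers, without overlap. Position 215495 of scaffold 211 was at 85.5% ± 11.4 and 66.7% ± 20.1 (SD, n = 3 each) and overlapped. The fourth, a G-to-A change at position 1929738 of scaffold 35, had edited reads in gynes of colonies A and B only.

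At 171 sites every small worker library had edited reads and the gyne libraries had none, and the reverse held at 7. The small worker libraries are deeper, and the authors called more sites in them. Whether this favoured the entry of sites edited in small workers into the authors' table was not tested. The median level of the 171 sites in small workers was 5.94%. These sites were picked by their edited reads in both castes, so their levels are a description, and 16 are among the 437 called. The limits given for 0 edited reads are 3 reads of the total. The highest, in a transposable element at position 288758 of scaffold 271, was at 31%, 28.1% and 19% in small workers and at 0 of 43 reads in gynes, which allows up to 6.98%. The highest in a gene lay in an intron of Ssdp (Aech_02587), a cofactor of transcription, at position 2112174 of scaffold 142. It was at 40%, 10.5% and 7.14% in small workers and at 0 of 65 gyne reads, which allows up to 4.62%.

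With the gene as the unit, 36 of 811 genes (4.44%) were called at an adjusted p of 0.05 by limma, applied to the average level of the tested sites of each gene. Of these, 34 (4.19%) were higher in small workers and 2 (0.247%) lower, and 181 had an unadjusted p under 0.05. The median difference was 9.90 points in the called genes and 1.98 over all 811 genes, of which 70.7% were higher in small workers. Library values did not overlap, with small workers higher, in 188 genes (23.2%), and with gynes higher in 10 (1.23%). Only 266 genes had at least 3 tested sites, and when these were tested alone 108 passed, all higher in small workers. With the average over genes of each library taken out, 59 genes passed, of which 15 were among the 36. Of the 59, 13 were higher and 46 lower relative to the common rise, so a gene without any change can count as lower here. With the replicate block 0 genes passed (168 unadjusted). Without small workers of colony B 0 passed (158 unadjusted), without gynes of colony C 1, without small workers of colony A 19, and with a minimum of 5 reads in place of 10 the count was 19.

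CG5515 (Aech_14715), which encodes a protein with an RWD domain, had the smallest p. Its 14 tested sites, all in the 3' UTR and all higher in small workers, averaged 5.01%, 3.65% and 3.41% in gynes of colonies A, B and C and 14.6%, 13.7% and 16.2% in small workers (limma adjusted p = 0.0299). Small workers thus lay far above gynes in each colony. Nup98-96 (Aech_16532), which encodes components of the nuclear pore, was at 17.4%, 16.9% and 13.5% over 9 sites in gynes and at 32.5%, 29.8% and 32.9% in small workers, and all 9 sites were higher. Sac1 was at 16.1%, 13.6% and 11.1% over 13 sites in gynes and at 28.9%, 29.1% and 30.9% in small workers, again with every site higher. CG14621, with 29 sites, was at 15.0%, 14.8% and 16.5% in gynes and at 32.8%, 28.3% and 30.2% in small workers. In each of these genes the 3 small worker values lay apart from the 3 gyne values. CG11590 (Aech_12641), a CutA-like protein, went from 13.5% ± 0.860 to 24.9% ± 1.73 over 8 sites, 6 of them higher, and Dsp1 (Aech_05411), a high mobility group protein that binds DNA, from 15.7% ± 1.08 to 25.7% ± 0.217 over 14 sites (SD, n = 3 each). The intronic sites of yellow-b (Aech_03703), a member of the yellow family of insects, went from 7.24% ± 0.709 to 15.4% ± 0.846.

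Both genes called as lower in small workers had few sites. CG6432 (Aech_02561), an acyl-CoA synthetase with 1 G-to-A site, was at 6.90%, 11.8% and 16.7% in gynes and at 0 of 69 reads in small workers, which allows up to 4.35% (adjusted p = 0.0301). Aech_10765, a mitochondrial ribosomal protein with 2 intronic sites, was at 12%, 19.2% and 15.5% in gynes and at 4.65%, 5.26% and 5.88% in small workers (adjusted p = 0.0443). With a minimum of 5 reads, which brings in more of its sites, the difference of Aech_10765 turned to 3.91 points higher in small workers and was not called.

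Genes were further grouped by words in the protein and fly ortholog names. Of 32 genes matched to energy metabolism 4 (12.5%) were called as higher and 0 as lower, against 4.19% and 0.247% of all genes, with a median difference over the list of 2.02 points against 1.98 over all genes. ATPsyn-gamma (Aech_01266), a subunit of the ATP synthase, was at 4.66%, 5.18% and 3.55% in gynes and at 14.1%, 17.5% and 19.6% in small workers. CG5214 (Aech_14406), a subunit of the oxoglutarate dehydrogenase of the citric acid cycle, was at 4.12%, 4.05% and 4.61% and at 14.6%, 12.1% and 15.2%. For both, small workers had less RNA over the sites as well, with a log2 difference in read depth of -2.00 and -2.03. The other 2 called genes of this list do other work, since Alas (Aech_15989) makes the first intermediate of heme and CG5167 (Aech_08130) is a putative saccharopine dehydrogenase, an enzyme of lysine metabolism. The single Alas site was at 0.775%, 3.16% and 2.27% in gynes and at 15.9%, 12.8% and 16.9% in small workers.

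Of 28 RNA-binding genes 2 (7.14%, against 4.19% of all genes) were called as higher, sqd and the splicing factor gene CG6197 (Aech_14890), whose 17 intronic sites went from 9.27% ± 2.04 to 18.2% ± 0.820 (SD, n = 3 each, adjusted p = 0.0468). The median difference of this list was 1.67 points. The splicing factor gene pUf68 (Aech_08328) went from 15.6% ± 1.39 to 22.8% ± 2.86 and was not called (adjusted p = 0.0866). Of 52 genes matched to kinases and phosphatases 3 (5.77%) were called, namely Sac1, Argk (Aech_01836), which stores high-energy phosphate in muscle and nerve, and CG1815 (Aech_05829), which by name binds protein kinase C and is not itself a kinase. The Argk site was at 1.46%, 1.26% and 0.905% in gynes and at 5.66%, 7.38% and 6.73% in small workers (adjusted p = 0.0352). Of 24 zinc finger and transcription genes 2 (8.33%) were called, Pep (Aech_11796), whose 22 sites went from 16.7% ± 2.05 to 26% ± 1.32, and Aech_17755, whose only site had 0 of 80 gyne reads edited, which allows up to 3.75%, and 5.71% to 16.7% in small workers. Of 48 transporter, channel and receptor genes 3 (6.25%) were called, CG14621, the monocarboxylate transporter gene CG11665 (Aech_14367) and Dh44-R1 (Aech_17637), in Drosophila a receptor of a diuretic hormone. The 1 site of Dh44-R1 was at 0 of 57 reads in gynes, which allows up to 5.26%, and at 14.3%, 7.14% and 7.32% in small workers. With 2 to 4 calls each, these lists differ from the 4.19% of all genes by few genes. Their median differences lay between 1.52 and 2.25 points, close to that of all genes. The share of all genes includes genes without an A-to-G site. At A-to-G sites only, 43 of 509 genes were called as higher, and the lists were not set against that share.

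Of the 9 neuron genes with tested sites 0 were called by limma and 5 had a higher mean in small workers, against 4.44% called and 70.7% higher among all genes, so a list of this size would hold fewer than 1 called gene at the share of all genes. Their median difference was 0.266 points. Rdl (Aech_17865), a receptor for the transmitter GABA, was at 16.4%, 15.0% and 9.23% over 5 intronic sites in gynes and at 25.8%, 28.8% and 21.6% in small workers, without overlap (adjusted p = 0.0840). Over the 28 intronic sites of mmd (Aech_17011), a metalloproteinase-like membrane protein, gynes were at 16.4% ± 0.907 and small workers at 18.1% ± 0.369, and with a minimum of 20 reads the difference turned to -1.95 points. futsch (Aech_03818), a microtubule-binding protein of neurons, was at 12%, 10.3% and 10.5% in gynes and at 8.77%, 9.49% and 8.60% in small workers, without overlap and with gynes higher (adjusted p = 0.342). The only glia marker measured, repo (Aech_01834), was at 22.2% ± 7.40 and 13.5% ± 1.03 (SD, n = 3 each, adjusted p = 0.253). Of 5 muscle genes Argk was called, while Msp-300 (Aech_17863), a nesprin that anchors nuclei, was at 19%, 22.7% and 5.58% in gynes and at 26.5%, 30.7% and 22.4% in small workers and overlapped, as did the G-to-A site of Mhc (Aech_17649).

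Among the 8 genes with the most tested sites none passed at the minimum of 10 reads, and 7 had a higher mean in small workers. Mdh1 (Aech_13462), a malate dehydrogenase with 82 tested sites, was at 12.5%, 13.9% and 13.1% in gynes and at 17.2%, 17.3% and 16.2% in small workers, without overlap, and 72 of its sites were higher (limma adjusted p = 0.112). Hsc70-4 (Aech_00116), a chaperone with 58 sites, went from 11.5% ± 0.378 to 16.3% ± 0.890 with 50 sites higher (adjusted p = 0.0674). Tap42 (Aech_09719), a regulator of phosphatases, went from 11% ± 2.40 to 19% ± 0.967 with 42 of 45 sites higher (adjusted p = 0.0629). TBPH (Aech_17635), the ortholog of the RNA-binding protein TDP-43, was at 25.1%, 26.3% and 23% and at 30.2%, 31.5% and 31.6% (adjusted p = 0.0840). Each of these genes had every small worker value above every gyne value. Caps (Aech_02927), which primes vesicles for release from neurons, was at 21.2%, 20.7% and 24.1% over 42 sites in gynes and at 20.8%, 21.6% and 21.7% in small workers, and 19 of its sites were higher (adjusted p = 0.861). Without gynes of colony C its difference of -0.62 points turned to 0.44. With a minimum of 20 reads Mdh1 (adjusted p = 0.0227), Hsc70-4 (0.0149), Aech_07791 (0.0300), Tap42 (0.0454), TBPH (0.0381) and Aech_11733 (0.0480) passed, and when only genes with 3 or more tested sites were tested Hsc70-4, Aech_07791, Tap42 and TBPH did. Of the other 3, Aech_07791 and Aech_11733 (Prestin) did not overlap between castes either, and Gs1, a glutamine synthetase, did.

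**Figure D2:**
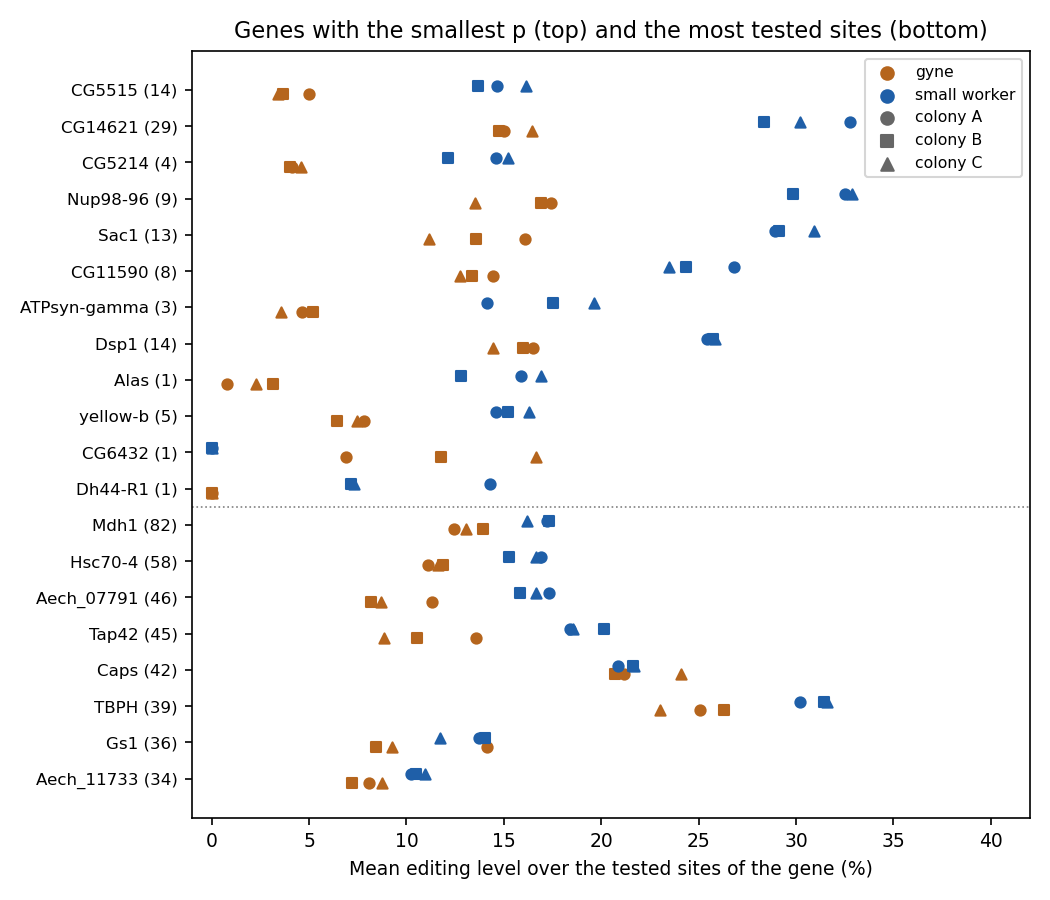
Mean editing level over the tested sites of a gene (x axis, percent) in each library for the 12 genes with the smallest p (above the dotted line) and the 8 with the most tested sites (below it); the number of tested sites is in brackets, colours are castes and shapes are colonies. CG5515, Nup98-96 and Sac1 show castes far apart, CG6432 is at 0 in small workers and Caps shows overlapping castes.

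Editing sites lie close together, so neighbouring sites were joined into clusters. A cluster held at least 5 tested sites of 1 kind of change with gaps of at most 100 bases. The strand was not used, and 10 clusters held sites of both strands, which can belong to different transcripts. This gave 418 clusters with 4033 sites, a median of 8 sites and a median length of 83.5 bases, of which 191 lay in genes. Tested by limma on the mean level of their sites, 142 of 418 clusters (34%) were called, all of them higher in small workers, and 197 passed before adjustment. Levels did not overlap, with small workers higher, in 207 clusters (49.5%), the reverse held in 0, and the mean was higher in small workers in 88.8% of clusters. The median difference was 8.62 points in called clusters, from 4.13 to 22.8, and 4.70 in all clusters. The colony as a replicate block gave 146 calls, of which 124 were among the 142. With the average over clusters of each library taken out, limma called 0 (79 before adjustment). Without small workers of colony A, B or C the count was 36, 43 and 72.

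Within a called cluster nearly all sites moved the same way. Of the 1393 sites in called clusters 1305 (93.7%) were higher in small workers, against 69.7% in the other clusters, though a cluster's call rests on the levels of these same sites. In 89 called clusters every site was higher. In 35 called clusters no site passed the test for sites on its own. Of 132 clusters that lay wholly in 3' UTRs 56 were called, of 47 in introns 18, of 52 in transposable elements outside genes 13 and of 144 without annotation 35. Clusters of 5 to 9 sites were called in 92 of 280 cases, those of 10 to 19 in 39 of 108 and those of 20 to 43 in 11 of 30.

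The cluster with the smallest p lay in the 3' UTR of CG5515, at positions 3063 to 3181 of scaffold 340 in assembly Aech_2.0. Its 10 sites averaged 4.53%, 3.07% and 2.94% in gynes of colonies A, B and C and 15.0%, 14.0% and 17.3% in small workers (limma adjusted p = 0.00899, 0.0102 with the block). All 10 were higher in small workers, by 1.53 to 24.3 points, and 7 were called on their own. The 9 sites of Nup98-96 at 70248 to 70430 of scaffold 448, 6 of them in a transposable element, were higher by 4.86 to 33.9 points. The 5 sites of the uncharacterised gene Aech_07791 at 393429 to 393443 of scaffold 531 moved most evenly, by 13.5 to 18 points, and all 5 were called. They averaged 16.8%, 15.9% and 11.3% in gynes and 29.1%, 29.4% and 32.5% in small workers (adjusted p = 0.00930).

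A cluster without a gene at 2798651 to 2798762 of scaffold 50 had 9 sites and went from 11.2% ± 0.759 to 22.6% ± 1.48 (SD, n = 3 each). The 7 sites at the 3' UTR of CG11590, at 151995 to 152083 of scaffold 517, averaged 16.8%, 13.6% and 14.8% in gynes and 32.5%, 28.9% and 28.4% in small workers. This cluster held sites of both strands, 1 of them in a transposable element outside genes. In the 3' UTR of CG5167, 8 sites at 574861 to 574927 of scaffold 274, all in a transposable element, averaged 12.8%, 12.7% and 14.8% in gynes and 26%, 25.1% and 24.5% in small workers. Outside genes, 8 sites within 22 bases at 596039 to 596060 of scaffold 21 went from 1.81% ± 0.606 to 10.7% ± 1.36 (SD, n = 3 each), and 5 sites at 796227 to 796249 of scaffold 43 from 4.80% ± 1.99 to 18.2% ± 1.60. All sites of these clusters were higher in small workers, and each passed with and without the block.

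With all 6 libraries no cluster was called as lower in small workers, and the lowest difference was that of Adar itself. Its 5 sites in the 5' UTR, at 702612 to 702723 of scaffold 326, averaged 22.7%, 28.7% and 38.9% in gynes and 20.8%, 24.1% and 21.4% in small workers. The difference was -8.02 points, with overlapping groups (adjusted p = 0.145). At position 702625, the site with the largest difference, the level was 34.8%, 27% and 58.8% in gynes and 28.6%, 26.7% and 23.3% in small workers. Gynes of colony C carried much of the difference, which was -3.63 points without them and -11.7 points (adjusted p = 0.0479) without gynes of colony A. A minimum of 20 reads leaves only the Adar site at position 702723, at 3.85% in gynes and 4.69% in small workers. The gene's difference was then that of this site, 0.836 points in the other direction, as with the minimum of 10 reads. Other clusters with a lower mean in small workers lay in the 3' UTRs of the potassium channel gene Shaw (Aech_06394), at 26.1% ± 3.09 in gynes, against 21.8% ± 2.36 in small workers (adjusted p = 0.176), and of Grip (Aech_05275), a glutamate receptor-interacting protein, at 20.2% ± 1.14 and 16% ± 5.50 (adjusted p = 0.263). In Aech_09867, 21 sites of a transposable element at 589023 to 589164 of scaffold 177 were at 22.1% ± 3.37 and 17.6% ± 1.14 (SD, n = 3 each, adjusted p = 0.133), and 5 of the 21 were higher in small workers. Without gynes of colony A its difference was -6.48 points, and it was called along with Adar (adjusted p = 0.0479).

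**Figure D3:**
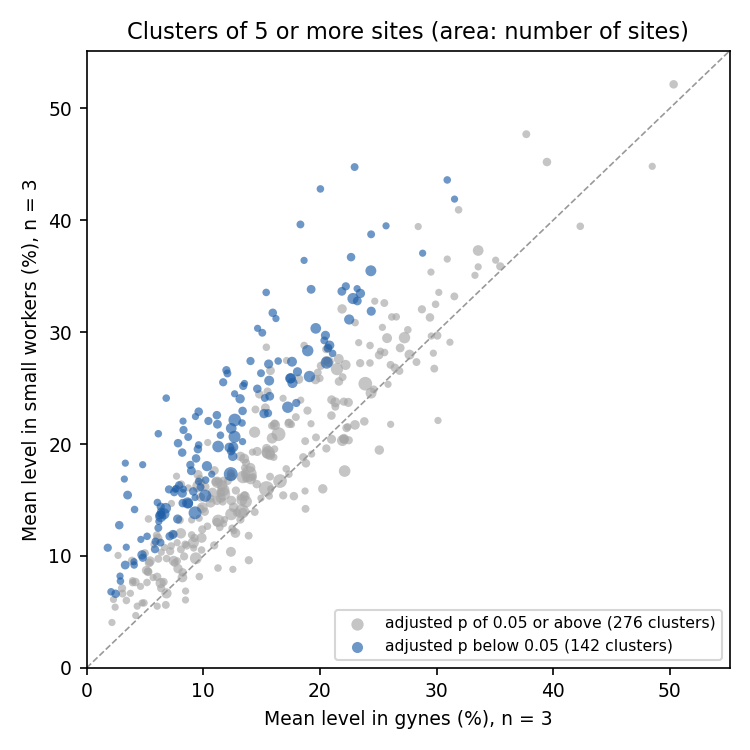
Mean level of each of the 418 clusters in gynes (x axis, percent) and small workers (y axis, percent), each a mean over 3 libraries; the area of a point follows the number of sites, blue points have an adjusted p below 0.05 and the dashed line marks equal levels. The 142 called clusters all lie above the line, as do most of the others.

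The differences of neighbouring A-to-G sites were alike at short distance. Across 3242 pairs of neighbours 1 to 10 bases apart, the differences between castes correlated with Pearson r = 0.346. At 11 to 30 bases r was 0.164 (835 pairs), at 31 to 90 bases 0.215 (482 pairs), at 91 to 300 bases 0.128 (259 pairs), at 301 to 1000 bases 0.186 (177 pairs), at 1001 to 10000 bases 0.181 (252 pairs) and at 10001 to 100000 bases -0.00154 (358 pairs). Between 11 and 10000 bases the values thus went up and down without a steady fall. Pairs within 90 bases, the read length, can share a read, and pairs farther apart can be covered by the paired reads of the same fragment. When the difference of a site in 1 colony was set against that of its neighbour in another colony, so that no read was shared, mean r was 0.108 at 1 to 10 bases, 0.0502 at 11 to 30, 0.0765 at 31 to 90, 0.0563 at 91 to 300, 0.0859 at 301 to 1000, 0.0682 at 1001 to 10000 and -0.00328 beyond. These values are descriptions over pairs that share transcripts and libraries.

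**Figure D4:**
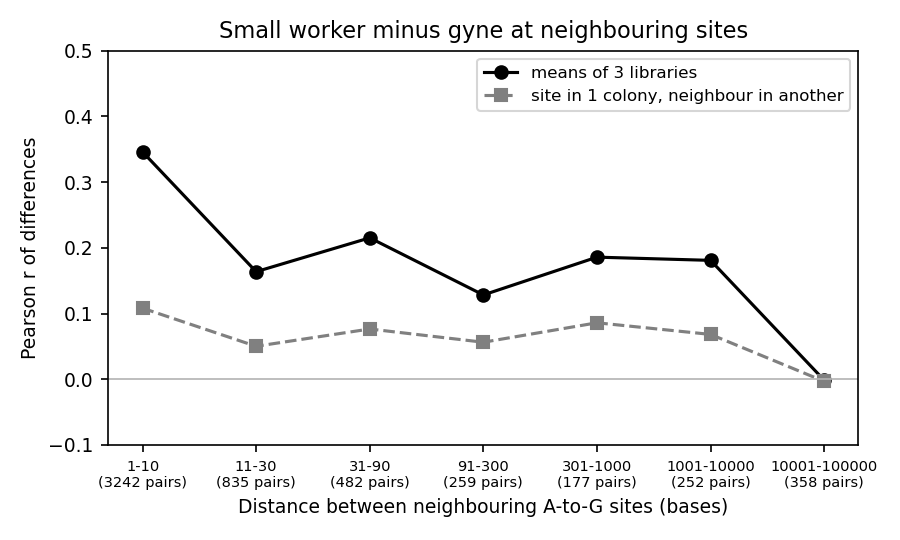
Pearson correlation (y axis) of the difference between small workers and gynes at neighbouring tested A-to-G sites, by the distance between them (x axis, bases, with the number of pairs); the solid line uses means over 3 libraries and the dashed line sets a site in 1 colony against its neighbour in another. Both are highest at 1 to 10 bases and near 0 beyond 10000 bases.

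RNA read depth was compared per gene as the mean number of RNA reads per editing site, scaled between libraries by the median of ratios. It counts reads over editing sites, many of them in introns and UTRs, and is not a measure of whole transcripts. By limma on its log2, 145 of 1148 genes (12.6%) were called, 56 (4.88%) higher and 89 (7.75%) lower in small workers, and 318 passed before adjustment. The replicate block gave 144 calls. Without small workers of colony A, B or C the count was 57, 70 and 51, and without gynes of colony B it was 63.

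Adar (Aech_00367), the editing enzyme, had more reads over its sites in small workers. Its scaled depth was 23.4, 31.6 and 20.6 reads per site in gynes of colonies A, B and C and 66.0, 87.7 and 59.9 in small workers. The groups did not overlap, and the log2 difference was 1.49 ± 0.280 (SE, limma adjusted p = 0.00975, 0.0155 with the block). The call held under each alternative run, with log2 differences between 1.33 and 1.64. Of its 7 sites in the table, the 5 tested for level lie within 112 bases of the 5' UTR. The depth is thus mostly that of a short stretch and not of the whole transcript.

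Most neuron markers had more reads over their sites in small workers. Of the 12 found among 41 listed, 11 had a higher depth, against 578 of all 1148 genes. As higher 2 (16.7%) were called, against 4.88% of all genes. Rim (Aech_17864), a scaffold of the synaptic release site, was at 21.6, 20.2 and 9.19 reads per site in gynes and at 46.7, 48.1 and 46.3 in small workers (log2 difference 1.53 ± 0.350 SE, adjusted p = 0.0208). Shaw was at 17.3, 16 and 11.8 and at 30.6, 32.9 and 36.1 (1.13 ± 0.287, adjusted p = 0.0305). Neither passed when any 1 of the small worker libraries was left out, Shaw did not without gynes of colony B, and over tested sites alone Rim differed by 0.95 and was not called. Rab3 (Aech_11402), a GTPase of synaptic vesicles, and Caps did not overlap between castes either, at log2 differences of 0.73 and 0.65 (adjusted p = 0.0529 and 0.0855). The median log2 difference of the neuron markers was 0.69. repo had 38.3 to 40.1 reads per site in gynes and 51.3 to 69.8 in small workers (adjusted p = 0.109), and none of the 6 fat body markers had a site in the table.

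All 6 muscle markers, of 26 listed, had a lower mean depth in small workers, and 2 (33.3%) were called, against 7.75% of all genes. Argk was at 2073, 2311 and 3015 reads per site in gynes and at 1190, 859 and 1174 in small workers (log2 difference -1.20 ± 0.198 SE, adjusted p = 0.00643). Mhc (Aech_17649), the muscle myosin, was at 94.0, 88.3 and 89.6 and at 43.9, 43.5 and 38.6 (-1.10 ± 0.215, adjusted p = 0.0110, and 0.0556 without small workers of colony C). sls (Aech_07607), the insect titin, was at 3925, 4663 and 2645 in gynes and at 2080, 2391 and 2559 in small workers (adjusted p = 0.0743). Of 48 energy metabolism genes 13 (27.1%) were called as lower and 1 (2.08%) as higher, against 7.75% and 4.88% of all genes, with a median log2 difference of -0.37 against 0.01 over all genes. With depth scaled by total reads, the muscle and energy lists kept a negative median (-0.83 and -0.33) and the neuron list a positive one (0.74).

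**Figure D5:**
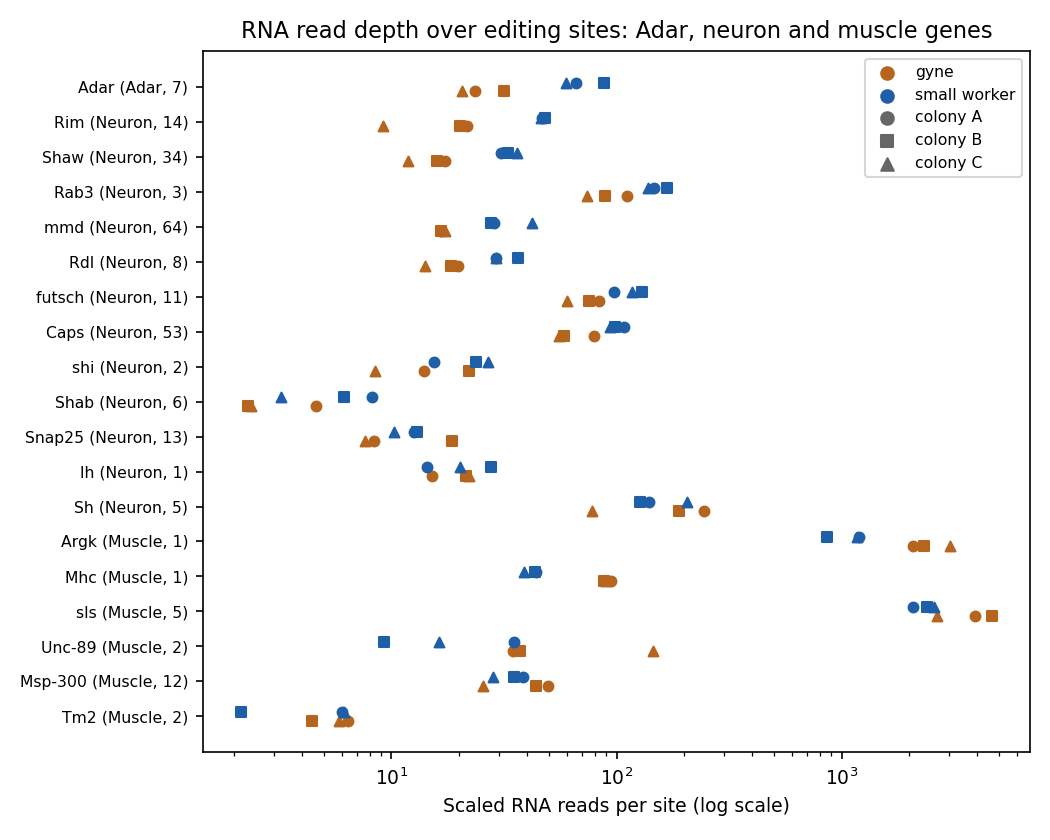
Scaled RNA reads per editing site (x axis, log scale) of Adar and of the neuron and muscle markers in each library, with the number of sites of each gene in brackets; colours are castes and shapes are colonies. Adar, Rim and Shaw are higher in small workers, Argk and Mhc are higher in gynes and genes such as Sh and Ih overlap.

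Among the 6 genes with the largest fall in depth in small workers were Aech_03054 and Arr2, each measured over 1 site. Aech_03054, annotated as the pheromone-binding protein Gp-9, which in fire ants lies in a region tied to colony queen number, was at 1554, 1531 and 1669 reads per site in gynes and at 262, 199 and 275 in small workers (log2 difference -2.70 ± 0.175 SE, adjusted p = 2.51e-05). Arr2 (Aech_02024), an arrestin that in Drosophila ends the light response of photoreceptors, was at 167, 144 and 170 and at 31.8, 30.6 and 24.6 (-2.45 ± 0.223, adjusted p = 0.000328). In both genes the castes were far apart and the colonies close together. CG3246 (Aech_04627) fell by 3.69, Aech_17545, a cytochrome P450 of family 4, by 3.27, Aech_15633, a transporter of the multidrug resistance kind, by 2.50 and qsm (Aech_05948) by 2.44 on the log2 scale.

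Among the genes with the largest rise in depth were 2 of neural signalling. Tk (Aech_12064), the neuropeptide tachykinin, was at 34.8, 40.4 and 46.8 reads per site in gynes and at 113, 136 and 157 in small workers (log2 difference 1.72 ± 0.232 SE, adjusted p = 0.00222). The serotonin receptor gene 5-HT1A (Aech_07181) was at 12.4, 7.57 and 5.63 and at 34.5, 28.7 and 27.8 (1.84 ± 0.359, adjusted p = 0.0111). The castes did not overlap in either gene, and the call of 5-HT1A was lost without small workers of colony A. Larger rises had few reads in gynes, as in Aech_03784 (3.37), gprs (Aech_11816, 2.97), the SETMAR gene Aech_15275 (2.56) and Aech_12079 (1.94). Aech_03784 kept its call without any 1 library. The others did not: leaving out 1 library ended the call of gprs in 5 of 6 cases (adjusted p up to 0.183), of Aech_12079 in 5 (up to 0.169) and of Aech_15275 in 4 (up to 0.118), the small worker libraries being among these for all 3, and scaling by total reads also ended that of gprs (0.0506).

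Level and depth were then set beside each other. Across the 811 genes with a tested level, the difference in level and the log2 difference in depth correlated with Pearson r = -0.121, and across the 266 genes with at least 3 tested sites with r = -0.309. These values come from the same libraries and are given as a description. The median difference in level was 0.279 points in the 43 genes with a depth called as higher in small workers, 2.68 in the 79 with a depth called as lower and 2.12 in the other 689. Of the 36 genes called for level 8 were also called for depth, against 122 of all 811 genes, a gap of few genes. All 8 had fewer reads in small workers, as did 79 of the 122. Among the 8 were CG5515 (log2 difference -0.88), CG5214, ATPsyn-gamma, Argk and CG11665 (-1.50). Over the 1013 sites in genes whose depth differed by less than 0.25 on the log2 scale, picked once the data had been seen, the mean level was 11.6% ± 0.614 in gynes, against 17.4% ± 0.101 in small workers (SD, n = 3 each), 5.81 points apart.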

How the data were processed

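Per the labels' protocols, RNA libraries were strand-specific, made from polyadenylated RNA of pooled heads and read as 90-base pairs. BWA 0.5.9-r16 is named in the submitters' processing notes. How sites were called is not given in the sources used here. Per the file headers, the authors deposited other packed values: each cell holds the read counts of each base at a site of assembly Aech_2.0 in the DNA and RNA of a sample, with a mark where the site was called. All DNA libraries had 0 edited reads at every site, and all columns were mapped to samples by their labels.

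The editing level was edited reads over all reads, at sites with a minimum of 10 RNA reads in each of the 6 libraries (median 51 reads per site and library). Reads carry no molecular identifiers, so a limit for a count of 0 (3 reads of the total) covers counting error only. R 4.3.3 was used to fit a quasi-binomial logistic model to each site. The Pearson dispersion was moderated by squeezeVar of limma 3.58.1 with a trend on depth and robust, kept at 1 or above, and used in F tests with Benjamini-Hochberg adjustment at 0.05. Genes and clusters were tested with limma (trend, robust) on mean levels after an arcsine-square-root transformation, leaving out of the gene tests the 21 sites in 2 genes. Read depth was tested with limma on log2 of the scaled reads per site plus 0.5, for genes with a mean of at least 5 reads. Scripts were tested on simulated data.

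The members, gene lists, tests and this dispersion setting were chosen with earlier results of these data known. Sites were named as the 10 largest differences in each direction among called, non-overlapping sites in genes, 1 per gene. Genes were named as the 12 smallest p, the 8 with most sites and up to 3 per list, clusters as the 8 smallest p, and depth as the 6 largest changes each way, with Adar. Other items were named after their values were seen. Lists match words of protein names, so a list can hold genes of other functions.

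The letters A, B and C are colonies and so pair the libraries by label. Deviations from caste means correlated with r from 0.0239 to 0.0408 between libraries of 1 colony and from -0.0285 to 0.00292 between colonies. Replicates differed by more than sampling noise (1.83 to 2.08 in chi-square per degree of freedom), and all were counted separately. Sequence around sites was not analysed here. Alternatives were other coverage minimums, dispersion settings, summaries, cluster rules and scalings, the replicate block and leaving out each library. Python 3.11.15 with SciPy 1.17.1, pandas 2.3.3 and, for plots, matplotlib 3.10.9 was used.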

Additional observations from a re-analysis of the deposited data

Results flagged for a closer look

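Libraries outside the comparison were edited as well. The mean level of the 3 large worker libraries, over the 5720 sites with at least 10 reads in all 9 libraries, was 13.6%, with 14.3% in colony A, 13.2% in B and 13.5% in C. Over the same sites gynes were at 11.6% to 12% and small workers at 15.6% to 16%.

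The 10309 sites left out for low depth that had any read showed the same direction. Their edited share of summed reads was 22.7%, 22.6% and 24.4% in gynes of colonies A, B and C and 28.7%, 28.6% and 28.9% in small workers, a difference of 5.49 points (exact permutation p = 0.1, the smallest possible). Groups of 3 libraries were not tested for single libraries that stand apart.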

How the results depend on the processing

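The difference in mean level stayed positive in each setting, though at changes other than A-to-G the castes overlapped (exact permutation p = 0.7). It was 4.96 points with a minimum of 5 reads, 4.03 with 20, 3.69 from summed reads, 3.50 as a median over sites, 4.82 at A-to-G sites, 0.0818 at other changes, 5.79 at sites of at least 5% and 6.26 at sites called in all large worker libraries. Sets chosen after seeing the data gave 5.15 at sites with at least as many gyne reads, 5.81 in genes of similar depth and 4.46 at sites in genes. Leaving out each library gave 4.26 to 4.51. For sites, 45 passed relative to the overall shift, 0 by limma (1132 unadjusted) and 0 with the replicate block (476 unadjusted), and without 1 library 230 to 353. The 4 other dispersion settings gave 435 to 448. For genes, 19 and 62 passed with minimums of 5 and 20 reads, 108 of genes with at least 3 sites, 59 relative to the overall shift and 0 with the replicate block (168 unadjusted), and without 1 library 0 to 37. Clusters of at least 10 sites were called 86 times, and limma called 0 clusters relative to the overall shift (79 unadjusted) and 36 to 113 without 1 library. Depth calls lay between 51 and 185 without 1 library, and the replicate block changed no other count by over 1.5 times. Directions turned in 6 of 1279 values of named items: Aech_10765 with 5 reads (3.91), Adar and mmd with 20 (0.836 and -1.95), Caps without gynes of colony C (0.441; -1.27 at the other end without 1 library), the CG6904 cluster without gynes of colony B (-0.374, otherwise up to 2.08) and that on scaffold 692 without small workers of colony B (-1.01, otherwise up to 7.03). A further 273 lost their call, 29 gained one, and the cause was not tested. For Adar the minimum of 20 reads leaves only the site at position 702723, which was higher in small workers with the minimum of 10 as well. Calls at sites with 10 to 19 reads are limited by depth.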

Other observations

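The 30 clusters with at least 20 tested sites differed widely among themselves. In the 3' UTR of S6k (Aech_11007), a growth-control kinase, 20 sites at 19900 to 20172 of scaffold 141 went from 19.1% ± 1.35 in gynes to 26% ± 1.32 in small workers (SD, n = 3 each, limma adjusted p = 0.0280, 0.0566 with the replicate block). An intronic cluster of Mlf (Aech_06724), named myeloid leukemia factor, went from 20.6% ± 1.04 to 27.3% ± 2.11 over 23 sites (adjusted p = 0.0354, 0.0606 with the block). The cluster of 27 sites that reaches into the 3' UTR of VhaSFD (Aech_14601), part of the vacuolar proton pump, rose from 9.29% ± 0.581 to 13.9% ± 0.237 (adjusted p = 0.0388, 0.0804 with the block). In the 3' UTR of Eip93F (Aech_10898), whose honeybee relative is known from large Kenyon cells of the mushroom body, 24 sites were at 11.7% ± 0.537 and 15.9% ± 0.987, without overlap (adjusted p = 0.0699). All 20 sites of a cluster without a gene at 1185465 to 1185568 of scaffold 207 were higher in small workers, and the cluster went from 6.62% ± 1.5 to 13.8% ± 0.867 (adjusted p = 0.0172, 0.0229 with the block, and 0.0545 and 0.0502 without small workers of colony A or B). The calls of S6k, Mlf and VhaSFD were also lost when any 1 of the small worker libraries was left out (adjusted p up to 0.116) and without gynes of colony B.

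Other large clusters hardly differed. In an intron of CG6904 (Aech_14572), a glycogen synthase, 34 sites of a transposable element were at 12.5%, 11.3% and 16.2% in gynes of colonies A, B and C and at 13%, 14.1% and 14.8% in small workers (adjusted p = 0.784). The 39 sites at 203352 to 203583 of scaffold 211 were at 15.4% ± 0.241 and 16% ± 0.420 (SD, n = 3 each, adjusted p = 0.777). In the cluster with the most sites, 43 at 6747 to 7285 of scaffold 692, small workers were at 10.1%, 26.2% and 15.6% and gynes at 12.2%, 17.6% and 11.8%, so that the castes differed in direction between colonies.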
